A study of Mus musculus with 6 samples.

Results

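The chemokine receptor genes of T cells described here were Ccr1, Ccr2, Ccr4, Ccr7, Ccr8, Ccr9, Cxcr3, Cxcr4 and Cxcr6, 9 of the 18194 genes that a probe set named alone on the arrays. They were chosen by name, and every probe set naming one of them alone was kept, which gave 18 of 45101 probe sets. Ccr9 had 5 of these, Ccr2 had 4, Ccr1 and Cxcr6 had 2 each, and the other genes had 1 each. Where a gene had several, the one whose log2 signal averaged highest over the 6 arrays stood for it, and the values of the others are given beside it.

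RNA of splenic CD4 T cells of C57BL/6 mice, cultured under Th2 conditions, was hybridised to 6 Affymetrix mouse arrays. Th2-4th cells, the fully developed Th2 cells of the study, had passed through repeated cycles of anti-TCR stimulation with IL-2 while IL-4 was blocked by antibody, and Th2-1st cells, its effector Th2 cells, came from 1 culture of 5 days with 25 U/ml IL-2 and 100 U/ml IL-4 after stimulation by anti-TCR and anti-CD28 antibody. In each culture 1 array held cells with GATA3 siRNA restimulated for 4 h with immobilised anti-TCR antibody, 1 held cells with control siRNA restimulated in the same way, and 1 held cells with control siRNA left unstimulated. All cells were electroporated with siRNA and harvested 24 h later, before any restimulation. The blocking of IL-4 went with the number of cycles, so that these 2 differences between the cultures cannot be told apart. There was 1 array for each condition, which gives no replicate error, no p-value and no test for any ratio below.

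Chemokine receptors are membrane receptors that couple to inhibitory G proteins and direct T cells along gradients of small secreted proteins, the chemokines. CCR4 and CCR8 are known as receptors of Th2 cells, CXCR3 as a receptor of Th1 cells, CCR7 guides naive and central memory T cells into lymph nodes, CCR9 guides T cells to the small intestine, and CCR1, CCR2 and CXCR6 are receptors of activated and tissue-entering cells. GATA3 is the transcription factor that sets the Th2 programme.

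The values are array signals on a linear scale, and the median over all probe sets of an array lay between 61.8 and 74.2. The log2 ratio of a pair of arrays is given with its spread, a robust SD of the same ratio over the 401 genes nearest in signal. That spread holds real changes as well as noise and is no replicate error. A gene was called lower under 0.5-fold and higher over 2-fold. The targeted gene was lower with GATA3 siRNA in both cultures. Gata3 had a signal of 2853 with GATA3 siRNA against 9261 with control siRNA in stimulated Th2-4th cells (log2 ratio -1.70), and 1798 against 4883 in stimulated Th2-1st cells (-1.44). Of 11 T cell markers 10 were measured, and all of these lay above the array median on every array. None of the 6 measured B cell markers did, but 4 of them lay above it on at least 1 array. Above it on every array were also 3 of 5 CD8 T and NK cell markers and 3 of 11 myeloid markers. In bulk RNA, fewer cells that express a gene and less RNA per cell cannot be told apart.

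**Figure D1:**
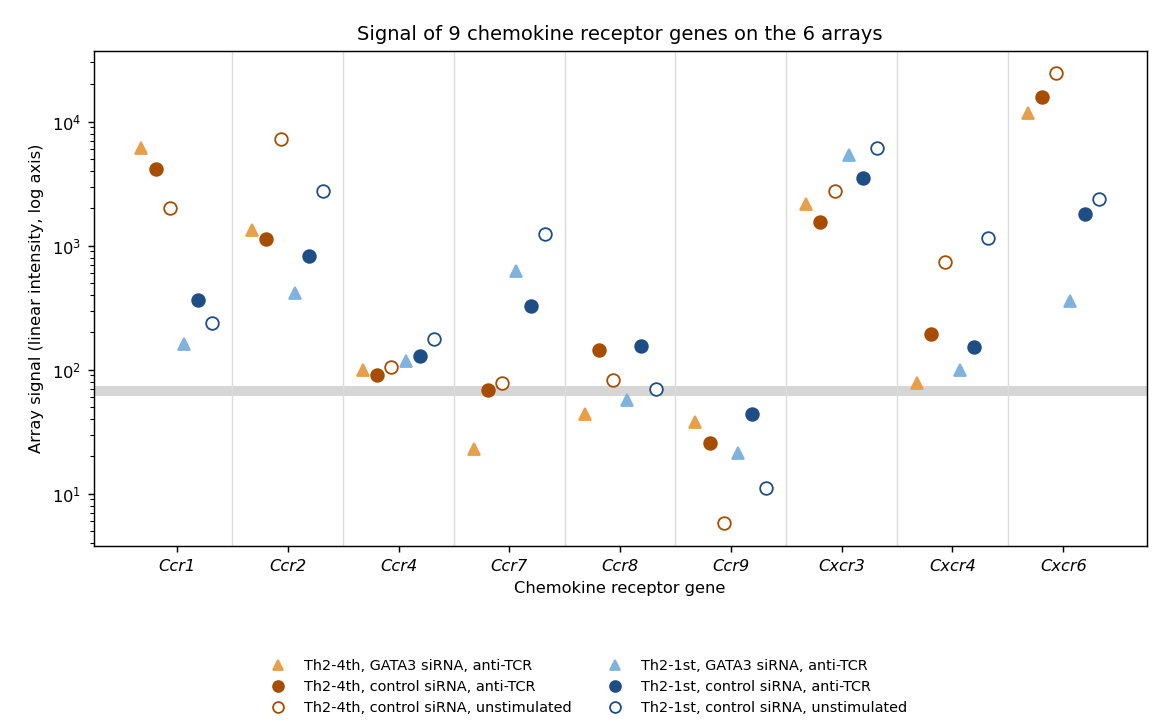
Array signal (linear intensity, log axis) of the 9 receptor genes on the 6 arrays; colour marks the culture, triangles GATA3 siRNA after anti-TCR, filled circles control siRNA after anti-TCR, open circles control siRNA without stimulation, and the grey band spans the array medians of 61.8 to 74.2. All 6 points of Ccr9 lie below the band, and the 3 Th2-4th points of Ccr1 and Cxcr6 lie above all 3 of their Th2-1st points.

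GATA3 siRNA went with lower signals of 3 receptor genes in Th2-4th cells and of 4 in Th2-1st cells, and no receptor gene was called higher in either culture. Ccr8 was lower in both cultures. Cxcr4 was lower in Th2-4th cells and within 2-fold in Th2-1st cells, whereas Cxcr6 and Ccr1 were within 2-fold in Th2-4th cells and lower in Th2-1st cells. Ccr7 in Th2-4th cells and Ccr9 in Th2-1st cells were also called lower, from signals below the array median on both arrays of the pair. In Th2-4th cells 10.6% of all genes were called lower and 10.6% higher. In Th2-1st cells 7.49% were called lower and 13.3% higher. Among genes above the array median on at least 1 array of the pair, 2 of 7 receptor genes were lower in Th2-4th cells, where 3.49% of such genes were lower and 3% higher. In Th2-1st cells 3 of 8 were lower, where 2.26% of such genes were lower and 4.41% higher. The median log2 ratio of the 9 receptor genes was 0.13 in Th2-4th cells and -0.99 in Th2-1st cells, beside 0.01 and 0.05 over all genes. Of 7 measured mast cell and basophil markers 2 were called lower and 3 higher with GATA3 siRNA in Th2-4th cells. In Th2-1st cells 2 were lower and 2 higher. None of these higher calls came from a gene above the array median in its pair. The part of these markers in the counts of receptor genes was not tested. The summed signal of the 7 measured of 8 such markers was 369.6 with GATA3 siRNA against 1278 with control siRNA in Th2-4th cells, and 211 against 356 in Th2-1st cells. Cpa3 had 44.9 against 320.2 and Mcpt8 171 against 873 in Th2-4th cells, and Cpa3 had 67.7 against 254.8 in Th2-1st cells, whereas the other 5 measured markers lay below the array median on all 6 arrays. The summed myeloid markers were 5627 against 6386 in Th2-4th cells and 2774 against 2951 in Th2-1st cells. From these same arrays the study itself had singled out Cxcr4 in Th2-4th cells, and Ccr1, Ccr8, Ccr9 and Cxcr6 in Th2-1st cells. The counts are therefore no independent evidence of the direction. The study did not list Ccr8 as lower on its arrays in Th2-4th cells, where it was called lower here. By quantitative PCR the study then had Ccr8 decreased past 3.16-fold in both cultures, and Cxcr6 in Th2-1st cells only. With quantile normalization 51.9% of all calls in Th2-1st cells were higher ones, beside 64.1% with the signals as deposited.

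Ccr8 encodes the receptor of the chemokine CCL1. Its signal in Th2-4th cells was 44.3 with GATA3 siRNA, 144 with control siRNA after anti-TCR and 82.3 unstimulated. In Th2-1st cells it was 56.9 with GATA3 siRNA, 154 with control siRNA after anti-TCR and 70.1 unstimulated. The GATA3 siRNA array was the lowest of its culture both times, and on it Ccr8 lay below the array median. The signal with GATA3 siRNA was 3.25-fold lower in Th2-4th cells (log2 ratio -1.70, spread 0.59) and 2.71-fold lower in Th2-1st cells (-1.44, spread 0.50), ratios 0.27 apart on the log2 scale. Since the lower value of each pair lay below the median, raising low signals to the array median gave -1.02 in Th2-4th cells. Ccr4, the receptor of CCL17 and CCL22, stayed within 2-fold in both cultures. Its signal was 99.6 with GATA3 siRNA against 90.8 with control siRNA in stimulated Th2-4th cells, and 117 against 130.1 in stimulated Th2-1st cells, with log2 ratios of 0.13 (spread 0.56) and -0.15 (spread 0.46). Over the 6 arrays the highest Ccr4 signal was 1.95 times the lowest, the narrowest range among the 9 genes.

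The promoters of Ccr8 and Cxcr6 are shown because these 2 genes had the lowest log2 ratios among the receptor genes above the array median, Ccr8 in Th2-4th cells and Cxcr6 in Th2-1st cells. The windows run from 250 bases before to 50 after the gene start, 300 bases in all, as given by RefSeq for GRCm38.p6. Both genes are on the plus strand of chromosome 9, at chr9:120091883-120092182 for Ccr8 and chr9:123806227-123806526 for Cxcr6. Capitals mark the words AGATAA or AGATAG or TGATAA or TGATAG on either strand, which are forms of the sequence that GATA factors bind.
Ccr8: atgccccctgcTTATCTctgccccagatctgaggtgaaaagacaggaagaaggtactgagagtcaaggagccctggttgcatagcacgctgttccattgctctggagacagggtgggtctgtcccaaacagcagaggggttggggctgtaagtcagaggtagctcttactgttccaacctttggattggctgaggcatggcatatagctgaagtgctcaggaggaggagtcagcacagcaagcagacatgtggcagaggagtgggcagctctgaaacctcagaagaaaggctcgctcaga
Cxcr6: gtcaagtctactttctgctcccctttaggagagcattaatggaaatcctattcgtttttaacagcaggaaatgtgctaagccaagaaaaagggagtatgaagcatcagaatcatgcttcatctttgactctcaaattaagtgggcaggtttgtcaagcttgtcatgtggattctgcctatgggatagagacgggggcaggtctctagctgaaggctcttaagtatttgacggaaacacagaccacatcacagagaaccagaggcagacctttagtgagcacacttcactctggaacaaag
The Ccr8 window held the word TTATCT, the reverse complement of AGATAA, and the Cxcr6 window held none of the words. Of the 8 receptor genes with a window, Ccr8, Ccr9 and Ccr2 held a word and Ccr1, Ccr4, Cxcr3, Cxcr4 and Cxcr6 held none. Of all 32851 windows of that length 29.8% held one. A match describes the letters in the window only.

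**Figure D2:**
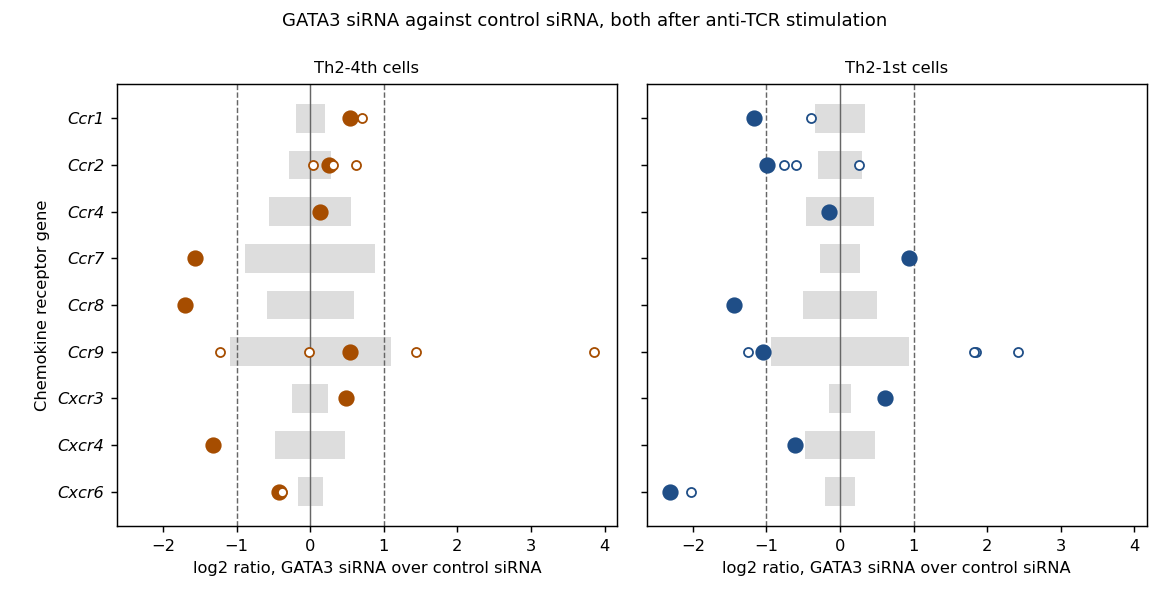
log2 ratio of the array signal, GATA3 siRNA over control siRNA after anti-TCR, in Th2-4th cells (left) and Th2-1st cells (right); large points are the probe sets that stand for the genes, small open points their other probe sets, grey bars the spread among genes of like signal and dashed lines 2-fold. Ccr8 lies left of the dashed line in both panels, Cxcr6 only in Th2-1st cells, and the 5 probe sets of Ccr9 scatter on both sides of 0.

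CCR1 binds CCL3 and CCL5, and CCR2 binds CCL2, CCL7 and CCL12. Ccr1 had a signal of 6098 with GATA3 siRNA, 4187 with control siRNA after anti-TCR and 1999.8 unstimulated in Th2-4th cells. In Th2-1st cells it had 162 with GATA3 siRNA, 362 with control siRNA after anti-TCR and 236 unstimulated. The GATA3 siRNA array was thus the highest of the Th2-4th arrays and the lowest of the Th2-1st arrays. The log2 ratio to control siRNA was 0.54 (spread 0.19) in Th2-4th cells and -1.16 (spread 0.34) in Th2-1st cells, and these differed by 1.70. The other Ccr1 probe set gave 0.70 in Th2-4th cells and -0.39 in Th2-1st cells, the second from signals below the array median, and the mean over both probe sets was -0.78 in Th2-1st cells, short of a call. Ccr2 had a signal of 1342 with GATA3 siRNA, 1124 with control siRNA after anti-TCR and 7251 unstimulated in Th2-4th cells. The Th2-1st arrays gave 415 with GATA3 siRNA, 822 with control siRNA after anti-TCR and 2758 unstimulated. Unstimulated cells were the highest of each culture. The log2 ratio with GATA3 siRNA was 0.26 (spread 0.28) in Th2-4th cells and -0.99 (spread 0.30) in Th2-1st cells, where the ratio of 0.504 fell just short of a call. The other 3 probe sets of Ccr2 gave -0.77, -0.60 and 0.26 in Th2-1st cells, and the mean over its probe sets gave -0.52.

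CXCR6 is the receptor of CXCL16 and CXCR3 that of CXCL9 and CXCL10. Cxcr6 had a signal of 11844 with GATA3 siRNA, 15865 with control siRNA after anti-TCR and 24472 unstimulated in Th2-4th cells. The Th2-1st arrays gave 362 with GATA3 siRNA, 1801 with control siRNA after anti-TCR and 2381 unstimulated. The signal with GATA3 siRNA was 1.34-fold lower in Th2-4th cells (log2 ratio -0.42, spread 0.17) and 4.98-fold lower in Th2-1st cells (-2.32, spread 0.20), a difference of 1.89 between the log2 ratios. The other Cxcr6 probe set gave -0.38 in Th2-4th cells and -2.03 in Th2-1st cells. Cxcr3 had a signal of 2178 with GATA3 siRNA, 1561 with control siRNA after anti-TCR and 2737 unstimulated in Th2-4th cells. In Th2-1st cells it had 5346 with GATA3 siRNA, 3497 with control siRNA after anti-TCR and 6175 unstimulated. It was the only receptor gene above the array median with a positive ratio beyond its spread in both cultures, at 0.48 (spread 0.24) in Th2-4th cells and 0.61 (spread 0.14) in Th2-1st cells, both short of 2-fold.

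Cxcr4, the receptor of CXCL12, had a signal of 77.6 with GATA3 siRNA, 194 with control siRNA after anti-TCR and 733 unstimulated in Th2-4th cells. In Th2-1st cells it had 99.3 with GATA3 siRNA, 152 with control siRNA after anti-TCR and 1146 unstimulated. The order of the 3 arrays was the same in both cultures. The signal with GATA3 siRNA was 2.50-fold lower in Th2-4th cells (log2 ratio -1.32, spread 0.48) and 1.53-fold lower in Th2-1st cells (-0.61, spread 0.47). Ccr7 had a signal of 23.1 with GATA3 siRNA, 68.8 with control siRNA after anti-TCR and 78.4 unstimulated in Th2-4th cells. The Th2-1st signals were 621 with GATA3 siRNA, 324 with control siRNA after anti-TCR and 1242 unstimulated. The log2 ratio with GATA3 siRNA was -1.57 (spread 0.88) in Th2-4th cells, but both signals lay below the array median, and raising low signals to that median left -0.04. In Th2-1st cells the ratio was 0.94 (spread 0.27), the largest positive one among the 9 genes there. Ccr9 lay below the array median on all 6 arrays with each of its 5 probe sets. The probe set that stood for it had 37.7 with GATA3 siRNA, 25.9 with control siRNA after anti-TCR and 5.76 unstimulated in Th2-4th cells, and 21.2, 43.8 and 11.2 in the same order in Th2-1st cells. Its 5 probe sets gave log2 ratios with GATA3 siRNA of -1.22 to 3.86 in Th2-4th cells and of -1.25 to 2.42 in Th2-1st cells, so that the arrays gave no direction for Ccr9.

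Anti-TCR stimulation of control cells went with lower signals of Ccr2 and Cxcr4 in both cultures. Ccr7 was lower only in Th2-1st cells, where its unstimulated signal was high. Ccr1 was called higher in Th2-4th cells and Ccr8 in Th2-1st cells. Counting Ccr9, which was called higher in both cultures from signals below the array median, 2 receptor genes were lower and 2 higher in Th2-4th cells, and 3 were lower and 2 higher in Th2-1st cells. Over all genes 21.6% were lower and 18.7% higher in Th2-4th cells, and 16.9% lower and 17.5% higher in Th2-1st cells. Among genes above the array median in the pair, 2 of 8 receptor genes were lower and 1 higher in Th2-4th cells, beside 21% lower and 14.6% higher of all such genes. In Th2-1st cells 3 of 8 were lower and 1 higher, beside 16.7% lower and 10.7% higher. The counts in Th2-4th cells were thus near the share of all genes. After centring of each array 62.3% of all calls in Th2-1st cells were higher ones, beside 51.0% as deposited. The summed mast cell and basophil markers were 1278 after anti-TCR against 876 unstimulated in Th2-4th cells and 356 against 665 in Th2-1st cells, and their part in these counts was not tested. The comparisons of stimulation share the stimulated control arrays with those of GATA3 siRNA, and the comparisons of cultures share arrays with both.

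Ccr2 had 1124 after anti-TCR against 7251 unstimulated in Th2-4th cells, 6.45-fold lower (log2 ratio -2.69, spread 0.89), and 822 against 2758 in Th2-1st cells, 3.36-fold lower (-1.75, spread 0.72). Its other 3 probe sets gave -2.66 to -2.19 in Th2-4th cells and -1.81 to -0.67 in Th2-1st cells, all below 0. Cxcr4 had 194 after anti-TCR against 733 unstimulated in Th2-4th cells, 3.78-fold lower (-1.92, spread 1.12), and 152 against 1146 in Th2-1st cells, 7.55-fold lower (-2.92, spread 0.81). Cxcr4 and Ccr2 were therefore at their highest in unstimulated cells of either culture. Ccr7 was 3.83-fold lower after anti-TCR in Th2-1st cells (-1.94, spread 0.77), at 324 against 1242. In Th2-4th cells its signals of 68.8 and 78.4 (-0.19, spread 0.69) lay about the array median. Ccr1 was 2.09-fold higher after anti-TCR in Th2-4th cells (1.07, spread 0.89) and 1.53-fold higher in Th2-1st cells (0.62, spread 0.86). Its other probe set gave 0.85 in Th2-4th cells, short of a call, and 0.02 in Th2-1st cells, and the mean over probe sets gave 0.96 in Th2-4th cells, so that the call rests on 1 probe set. Ccr8 was 1.75-fold higher in Th2-4th cells (0.81, spread 1.05) and 2.20-fold higher in Th2-1st cells (1.14, spread 0.84). Of these ratios, those of Ccr1 in Th2-1st cells and of Ccr7 and Ccr8 in Th2-4th cells were within the spread. Cxcr3 stayed within 2-fold, with -0.81 (spread 0.95) in Th2-4th cells and -0.82 (spread 0.61) in Th2-1st cells. Cxcr6 did too, with -0.63 (spread 0.45) in Th2-4th cells and -0.40 (spread 0.77) in Th2-1st cells, and -0.72 and -0.82 by its other probe set. The 5 probe sets of Ccr9 gave -1.69 to 2.17 in Th2-4th cells and -0.62 to 1.97 in Th2-1st cells. Ccr4 had -0.20 (spread 0.94) in Th2-4th cells and -0.45 (spread 0.93) in Th2-1st cells.

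**Figure D3:**
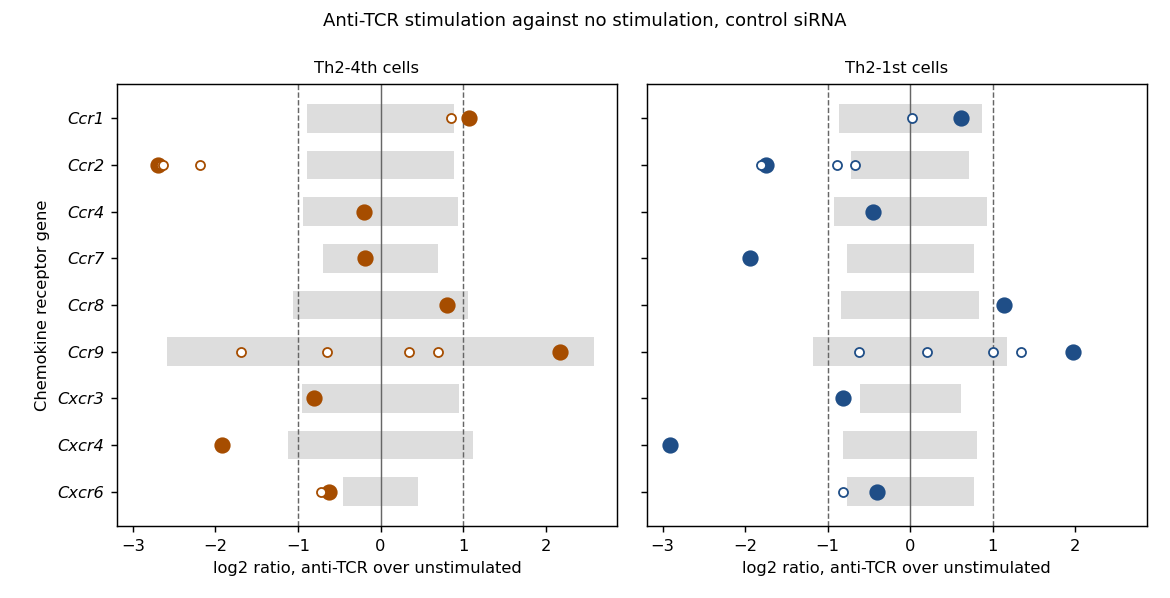
log2 ratio of the array signal, anti-TCR over unstimulated, in Th2-4th (left) and Th2-1st cells (right), drawn with large points for the probe sets that stand for the genes, small open points for the others, grey bars for the spread and dashed lines at 2-fold. Ccr2 and Cxcr4 lie left of the dashed line in both panels, and Ccr7 lies there only in Th2-1st cells.

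Of 20 ligand genes 18 were measured, and 11 of them were called higher and none lower after anti-TCR in each culture, beside 18.7% of all genes higher in Th2-4th cells and 17.5% in Th2-1st cells. Of those above the array median in the pair, 9 of 10 were higher in Th2-4th cells and 8 of 11 in Th2-1st cells. Ccl1, the CCR8 ligand, had 51302 after anti-TCR against 457 unstimulated in Th2-4th cells and 38354 against 50.7 in Th2-1st cells. Ccl3, a ligand of CCR1, had 50161 against 42.9 in Th2-4th cells and 35396 against 8.84 in Th2-1st cells, with unstimulated signals below the array median. Ccl5, also a ligand of CCR1, had 22301 against 2838 in Th2-4th cells and 10758 against 431 in Th2-1st cells. All of these stimulated signals were far above their unstimulated ones. With GATA3 siRNA, Ccl1 had 43962 against 51302 with control siRNA in stimulated Th2-4th cells and 40435 against 38354 in stimulated Th2-1st cells, within 2-fold in both pairs. In all, 3 ligand genes were called lower and 4 higher with GATA3 siRNA in Th2-4th cells, and none lower and 5 higher in Th2-1st cells, beside 10.6% lower and 10.6% higher of all genes in Th2-4th cells and 7.49% lower and 13.3% higher in Th2-1st cells. From genes above the array median came 1 of the lower and 3 of the higher calls in Th2-4th cells and 2 of the higher calls in Th2-1st cells. The CCR2 ligand genes Ccl12 and Ccl2 had 865 and 618 with GATA3 siRNA against 210.3 and 253 with control siRNA in Th2-4th cells (log2 ratios 2.04 and 1.29). Ccl17, a CCR4 ligand, had 64.4 with GATA3 siRNA against 158 with control siRNA there (-1.29). Ccl9, another CCR1 ligand of mice, had 5942 with GATA3 siRNA against 2328 with control siRNA in Th2-1st cells (log2 ratio 1.35), and Cxcl10, the CXCR3 ligand, had 249.9 against 106 (1.24). Ccl22, also a CCR4 ligand, had 94.1 with GATA3 siRNA against 43.0 with control siRNA in Th2-4th cells (1.13) and 371 against 189.7 in Th2-1st cells (0.97). Cxcl16, the CXCR6 ligand, had 84.4 against 160.3 in Th2-4th cells (-0.92) and 158 against 89.3 in Th2-1st cells (0.83), both short of 2-fold.

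Between the cultures, Ccr1 and Cxcr6 were several-fold higher in Th2-4th than in Th2-1st cells, with and without stimulation, Ccr7 and Cxcr3 were lower in both states, and Ccr2 was higher in unstimulated Th2-4th cells. In stimulated control cells 2 receptor genes were lower and 2 higher, beside 12.7% lower and 17.2% higher of all genes. In unstimulated control cells 2 were lower and 3 higher, beside 12.3% lower and 19.5% higher. Among genes above the array median the counts of receptor genes were the same, out of 8, beside 7.93% lower and 11.4% higher in stimulated cells and 9.22% lower and 11.9% higher in unstimulated cells. As deposited, 57.5% of all calls in stimulated cells and 61.3% in unstimulated cells were higher ones, against 44.0% in stimulated cells after centring and 49.5% in unstimulated cells after quantile normalization.

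Ccr1 had 4187 in stimulated Th2-4th cells against 362 in stimulated Th2-1st cells, 11.6-fold higher (log2 ratio 3.53, spread 0.55), and 1999.8 against 236 in unstimulated cells, 8.46-fold higher (3.08, spread 0.61). Cxcr6 had 15865 against 1801 in stimulated cells, 8.81-fold higher (3.14, spread 0.51), and 24472 against 2381 in unstimulated cells, 10.3-fold higher (3.36, spread 0.55). The other probe sets gave 3.59 and 2.76 for Ccr1 and 3.71 and 3.62 for Cxcr6, stimulated and unstimulated. For both genes every Th2-4th array was above every Th2-1st array. Between the GATA3 siRNA arrays the ratio was larger still, 37.7-fold for Ccr1 and 32.8-fold for Cxcr6. Ccr7 had 68.8 in stimulated Th2-4th cells against 324 in stimulated Th2-1st cells, 4.71-fold lower (-2.24, spread 0.68), and 78.4 against 1242 in unstimulated cells, 15.8-fold lower (-3.98, spread 0.82). Cxcr3 was 2.24-fold lower in stimulated Th2-4th cells (-1.16, spread 0.49) and 2.26-fold lower in unstimulated ones (-1.17, spread 0.68). For Ccr7 and Cxcr3 every Th2-4th array was below every Th2-1st array. Ccr2 was 2.63-fold higher in unstimulated Th2-4th cells (1.39, spread 0.62) but 1.37-fold higher after anti-TCR (0.45, spread 0.57). Its other 3 probe sets gave 1.49 to 1.94 in unstimulated cells and -0.27, 0.42 and 0.85 after anti-TCR, on both sides of 0. Those of Ccr9, with all 5 counted, gave -2.85 to 3.11 after anti-TCR and -0.96 to 3.77 in unstimulated cells. Ccr8 (-0.10 stimulated and 0.23 unstimulated), Ccr4 (-0.52 and -0.76) and Cxcr4 (0.35 and -0.64) stayed within 2-fold and within their spread.

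Markers of other cell types also differed between the cultures, and their part in these ratios was not tested. Of 11 myeloid markers, all measured, the summed signal was 5627 to 7992 in Th2-4th cells against 2774 to 3229 in Th2-1st cells, most of it from Cst3, which had 5099 to 7152 against 2254 to 2728. Of these 11, 4 were called higher and 3 lower in stimulated Th2-4th cells, and 5 higher and 1 lower in unstimulated ones. Over all genes 17.2% were higher and 12.7% lower in stimulated cells, and 19.5% and 12.3% in unstimulated ones. From markers above the array median in the pair came 2 higher calls and 1 lower call in stimulated cells. In unstimulated cells 4 of the higher calls did. Cst3, Cd68 and Fcgr3 lay above the array median on all 6 arrays, and Cd68 had 142 to 234 in Th2-4th cells against 67.6 to 95.2 in Th2-1st cells. Adgre1 was above it on 5 arrays, Csf1r on 4 and Cd14 on 1, and Lyz2, Itgam, S100a8, S100a9 and Itgax on none. Of 7 CD8 T and NK cell markers 5 were measured, with a summed signal of 1798 to 2355 in Th2-4th cells against 657 to 1265 in Th2-1st cells, and Klrd1 had 832 to 1608 against 86.2 to 134. Cd8b1 ran the other way, with 110.4 to 185 in Th2-4th cells against 313 to 444 in Th2-1st cells, and Cd8a had 124 to 217 against 126 to 162. The mast cell and basophil markers had a sum of 369.6 to 1278 in Th2-4th cells against 211 to 665 in Th2-1st cells, and Mcpt8 had 171 to 873 against 3.01 to 7.63, whereas Cpa3 had 44.9 to 582 against 67.7 to 562. The summed T cell markers were 93007 to 94687 in Th2-4th cells against 63675 to 72611 in Th2-1st cells. T cell, CD8 T and NK cell, and myeloid sums were thus all higher in Th2-4th cells. The sum of the 6 measured B cell markers was lower there, at 207.7 to 235.9 against 238.5 to 330.8 in Th2-1st cells.

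**Figure D4:**
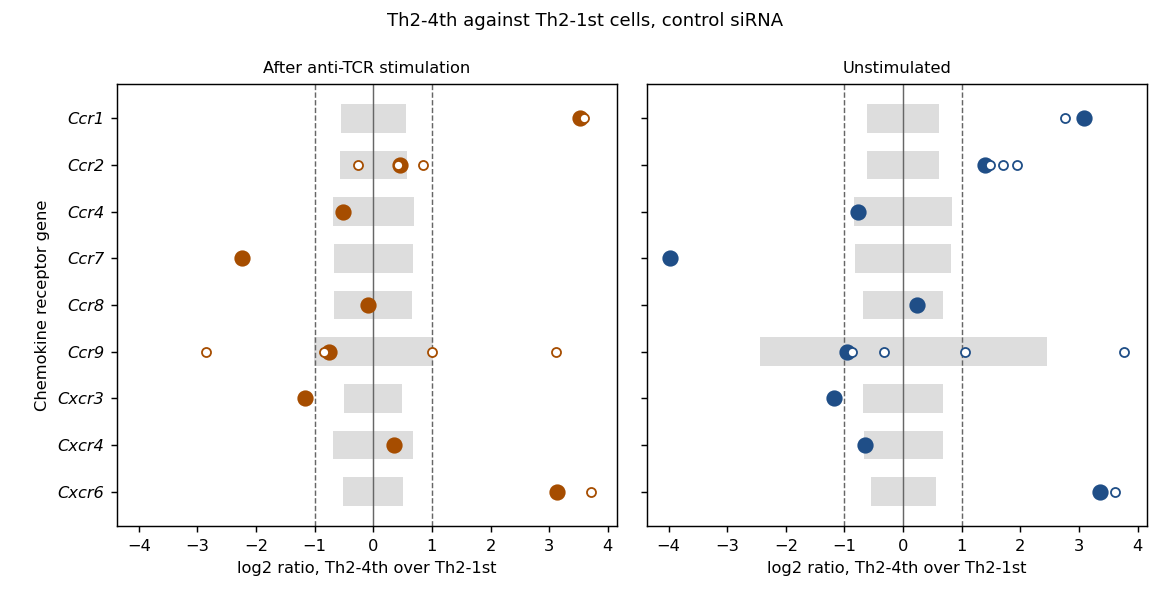
log2 ratio of the array signal, Th2-4th over Th2-1st with control siRNA, stimulated by anti-TCR (left) and unstimulated (right), with large points for the probe sets that stand for the genes, small open points for the others, grey bars for the spread and dashed lines at 2-fold. Ccr1 and Cxcr6 lie near or above 3 in both panels, and Ccr7 and Cxcr3 lie left of the dashed line in both.

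In mouse 6 of the 9 genes lie on chromosome 9. In the RefSeq gene order Ccr9, Fyco1, Cxcr6, Xcr1, Ccr1, Ccr1l1, Ccr3 and Ccr2 follow one another, whereas Ccr4 and Ccr8 lie elsewhere on that chromosome, Cxcr4 on chromosome 1, Ccr7 on chromosome 11 and Cxcr3 on the X chromosome. Within that cluster Cxcr6, Ccr1 and Ccr2 had log2 ratios with GATA3 siRNA of -0.42, 0.54 and 0.26 in Th2-4th cells, against -2.32, -1.16 and -0.99 in Th2-1st cells. Fyco1, a gene of vesicle transport between Ccr9 and Cxcr6, had -0.61 in Th2-4th cells and -0.62 in Th2-1st cells. Ccr3, a receptor of eosinophils and of some Th2 cells, had 263 with GATA3 siRNA against 86.9 with control siRNA in Th2-4th cells (1.60), and 78.0 against 108 in Th2-1st cells (-0.47).

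Genes with the nearest profiles were sought among the 9097 genes whose mean log2 signal lay above the median of all genes. Nearness was the root mean square difference of mean-centred log2 signals over the 6 arrays. The nearest to Ccr2 were Nipal3 (0.20) and Rab19 (0.22), and to Cxcr4 Glul (0.27), the glutamine synthetase gene, and Rcbtb2 (0.35). The nearest to Cxcr6 were Pls3 (0.36), which encodes an actin-bundling protein, and Rnf128 (0.55), which encodes an E3 ubiquitin ligase of T cell anergy. Ccr1 had Pdpn (0.60) and Arnt2 (0.63), and Ccr7 had Prkcb (0.65), a protein kinase C gene, and Sapcd2 (0.72). Ccr8 had Rai1 (0.24) and Hs3st3b1 (0.28), Cxcr3 had Amer1 (0.15) and Mcm8 (0.16), and Ccr4 had Bclaf1 and Vdac3 (both 0.07). The profiles of Ccr1 and Ccr7 had no gene nearer than 0.60, and their own log2 signals spanned 5.24 and 5.75. The distance was not scaled by that span, which was 0.97 for Ccr4 and 6.08 for Cxcr6. Over the 6 arrays the Pearson correlation was 0.96 of Ccr1 with Pdpn and 0.98 of Ccr7 with Prkcb. Both partners had been picked as nearest on these same arrays, so the correlations are no separate evidence of likeness.

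Of 28 genes of receptor signalling 27 were measured. None of them was called lower with GATA3 siRNA in either culture. Plcb2, a phospholipase C gene, was called higher in Th2-4th cells, at 102 with GATA3 siRNA against 44.7 with control siRNA. All 27 exceeded the median of at least 1 array of each GATA3 siRNA pair. Calls were rare among genes of that kind. In Th2-4th cells 3.49% of them were lower calls and 3% higher calls, and in Th2-1st cells 2.26% and 4.41%. The counts of signalling genes with GATA3 siRNA were near these shares. After anti-TCR 8 of the 27 signalling genes were lower and 3 higher in Th2-4th cells, and 8 were lower and 4 higher in Th2-1st cells. Of all genes 21.6% were lower and 18.7% higher in Th2-4th cells, and 16.9% and 17.5% in Th2-1st cells. All 27 lay above the array median in these pairs too. Of all such genes 21% were lower and 14.6% higher in Th2-4th cells, and 16.7% and 10.7% in Th2-1st cells. Rgs16, which limits G protein signalling, had 26582 after anti-TCR against 333 unstimulated in Th2-4th cells and 12107 against 75.6 in Th2-1st cells. Arrb1, an arrestin that desensitises receptors, had 66.4 after anti-TCR against 246 unstimulated in Th2-4th cells and 65.1 against 295 in Th2-1st cells. Of 19 measured genes of other trafficking, 4 were lower and 1 higher with GATA3 siRNA in Th2-4th cells, and 1 was lower and 1 higher in Th2-1st cells. Over all genes 10.6% were lower and 10.6% higher in Th2-4th cells, and 7.49% lower and 13.3% higher in Th2-1st cells. Among genes above the array median in the pair, 3 of 16 were lower in Th2-4th cells, beside 3.49% of all such genes. In Th2-1st cells none of 15 was lower, beside 2.26%. Itgae, the integrin of intraepithelial T cells, had 239 with GATA3 siRNA against 1354 with control siRNA in Th2-4th cells (log2 ratio -2.50, spread 0.30). Gpr183, an oxysterol receptor that positions lymphocytes, had 46.7 against 439 in Th2-4th cells (-3.23, spread 0.45) and 164 against 174 in Th2-1st cells (-0.09). Klf2, a regulator of T cell exit from lymphoid organs, had 139 after anti-TCR against 109 unstimulated in Th2-4th cells and 50.2 against 841 in Th2-1st cells, where Ccr7 was lower too. All 20 genes that regulate receptor expression were measured. With GATA3 siRNA only Gata3 itself was called lower among them in both cultures, and Stat4, a Th1 transcription factor, was called higher in Th2-1st cells, at 811 with GATA3 siRNA against 290.2 with control siRNA. Of 13 measured other chemokine receptor genes 2 were lower and 4 higher with GATA3 siRNA in Th2-4th cells, and 4 were lower and 1 higher in Th2-1st cells. The shares of all genes were 10.6% lower and 10.6% higher in Th2-4th cells, and 7.49% lower and 13.3% higher in Th2-1st cells. Above the array median in the pair lay 6 of the 13 in Th2-4th cells and 3 in Th2-1st cells. Of the calls of these 13 genes only that of Ccr3 in Th2-4th cells came from a gene above the array median in its pair.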

How the data were processed

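RNA of Th2-4th and Th2-1st cells was measured on 6 arrays, 1 for each condition. The deposited values are linear signal intensities, 1 for each probe set and array, which the authors computed in the Affymetrix Expression Console (algorithm and version not given in the sources used here). After 2% of probe sets was trimmed from each end, every array averaged 499.8, so the arrays had been scaled alike. No detection call, background value or scanner file was used here.

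Of 45101 probe sets 34958 named 1 gene, 932 several and 9211 none, and 34754 of those with 1 gene (99.4%) matched the RefSeq table. Ratios were taken without a filter on low signals, with the 2-fold bounds that the study applied to its arrays. No p-value was computed, and the number of arrays limits the precision. The scripts were checked on simulated data. The receptor genes and the gene lists were chosen with earlier results of these data known. Genes named were the 9 receptor genes, Gata3, the 2 nearest profiles of each receptor gene above the array median on any array, the ligands of a receptor, and from each other list at most 4 genes with the largest ratio above the array median in a comparison. The markers of other cell types named singly were chosen after their values were seen. Alternatives changed the probe set rule, the scaling, the treatment of low signals and the threshold. The software was pandas 2.3.3, numpy 2.4.6 and matplotlib 3.10.9 under Python 3.11.15.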

Additional observations from a re-analysis of the deposited data

Results flagged for a closer look

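For Ccr1 and Ccr7 the GATA3 siRNA array moved one way from its control array in one culture and the other way in the other. A gene was flagged where at least 1 of these ratios passed 2-fold and its signal lay above the array median on any array. The log2 ratio of Ccr1 was 0.5423 in Th2-4th cells and -1.162 in Th2-1st cells. That of Ccr7 was -1.571 in Th2-4th cells, where both signals lay below the array median, and 0.9375 in Th2-1st cells. Ccr2 (0.26 and -0.99) and Ccr4 (0.13 and -0.15) also had opposite signs in Th2-4th and Th2-1st cells, but stayed within 2-fold. So did the sign of Ccr9 change (0.54 and -1.05), from signals below the array median on all 6 arrays. With 1 array per condition these differences were not tested.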

How the results depend on the processing

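Of 494 values of single receptor genes under the alternatives, 18 changed sign, 14 of them of Ccr9 and 4 of differences between the cultures of Ccr8, Cxcr3 and Cxcr6. In 6 of the 18, all of Ccr9, the value as deposited was beyond 1 on the log2 scale, and in the other 12 it was within 1. The log2 ratio of Ccr9 with GATA3 siRNA in Th2-1st cells was 0.761 with the mean over probe sets, 2.424 by its most changed probe set and 0.1707 with a floor at the array median. With that floor its anti-TCR ratio was -0.02613 in Th2-4th cells and -0.01693 in Th2-1st cells, and the difference between the cultures of its GATA3 siRNA ratio was -0.2076. Where both signals lie below the median, the floor leaves the ratio of the array medians.

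At the 10 to the power 0.5 threshold (3.16-fold), which calls fewer genes by construction, the count of lower receptor genes was 1 with GATA3 siRNA in each culture and 1 between the cultures in each state. That of higher ones after anti-TCR was 1 in each culture. Both times this was Ccr9, which lay below the array median on all 6 arrays and whose probe sets disagreed in sign. With the mean over probe sets, after anti-TCR 0 were higher in Th2-4th cells and 1 in Th2-1st cells, and GATA3 siRNA left 2 lower in Th2-1st cells. With the floor, and among genes above the array median, 1 was higher after anti-TCR in each culture. By the most changed probe set 1 was higher with GATA3 siRNA in each culture. For the 3.16-fold threshold, the probe set rules and the floor the share of all genes called was not computed. These counts therefore cannot be set against it. Centring moved every log2 ratio of a pair by 0.01, -0.16, 0.13, 0.21, -0.24 and -0.16 (GATA3 siRNA in Th2-4th and Th2-1st cells, anti-TCR in Th2-4th and Th2-1st cells, cultures stimulated and unstimulated), and 5 receptor genes were then lower with GATA3 siRNA in Th2-1st cells. Over all 18194 genes 1603 were lower with GATA3 siRNA in Th2-1st cells after centring. No replicate could be left out, and no paired analysis was possible because each condition had 1 array.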
